A study of Mus musculus with 10 samples.

Results

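Axon guidance genes code for the secreted and membrane-bound signals, and the receptors for them, that steer growing nerve fibres and that many cells outside the nervous system also make. The genes described here are the rows of the count table whose symbol belongs to the semaphorins of classes 3 to 7, the plexins, the neuropilins, the ephrins, the Eph receptors, the netrins, the Unc5 receptors, the Slits or the Robo receptors. The rule took 67 of the 18103 rows. They were 20 semaphorins, 13 Eph receptors, 9 plexins, 8 ephrins, 4 netrins, 3 Unc5 receptors, 3 Slits, 3 Robo receptors and 2 neuropilins. The other two, Unc50 and Unc5cl, match by the letters of their symbol and are not netrin receptors. Epha6, Robo4 and Unc5d were not analysed here.

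RNA of 10 cultures of mouse breast cancer cells was sequenced, 2 independent experiments in each of 5 groups, all sampled at 7 days. MTΔECad cells received rosiglitazone, a drug that activates PPARγ, or served as controls. Py2T-LT cells received the growth factor BMP2 together with a MEK inhibitor (called the combination from here on), the MEK inhibitor alone, or served as controls. The treatment protocol names PD98059 as the MEK inhibitor and gives usual doses of 2 µM rosiglitazone, 200 ng/ml BMP2 and 40 µM PD98059, with DMSO medium for control cells. The labels of single samples state no dose, no group had BMP2 alone, and the Py2T-LT labels name no rosiglitazone. Both lines are mesenchymal: Py2T-LT cells derive from a mammary tumour of a mouse carrying polyoma middle T and were kept long term in TGF-beta, and MTΔECad cells derive from another mouse tumour in which the E-cadherin gene Cdh1 was deleted. Each comparison between lines rests on 1 line of each kind, so E-cadherin loss, tumour of origin and culture history cannot be told apart.

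Netrins are secreted proteins related to laminin that attract through the receptors Dcc and neogenin and repel through Unc5 receptors, and Slits are secreted proteins that repel through Robo receptors. Class 3 semaphorins are secreted and bind neuropilins, which signal together with plexins, while most other semaphorins sit in the membrane and bind plexins directly. Ephrins are membrane-bound ligands of the Eph receptor tyrosine kinases, so that signalling needs contact between cells. In the mammary gland and its tumours these families are known for roles in duct growth, cell sorting, vessel growth and invasion.

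Library totals lay between 14659987 and 17249199 counts. Levels are given as CPM, counts per 1e+06 counts of the library total scaled by its TMM factor. On that scale 1 count was worth at most 0.0696 CPM. Cdh1, the gene deleted in MTΔECad cells, stood at 3.02 and 4.61 CPM in rosiglitazone-treated MTΔECad libraries and at 2.57 and 2.25 CPM in MTΔECad controls. It stood at 18.3 and 15 CPM with the combination, 12.7 and 11 CPM with the MEK inhibitor and 36 and 31.7 CPM in Py2T-LT controls, so each MTΔECad library lay below each Py2T-LT library. All 8 mesenchymal markers passed the count filter, as did all 7 epithelial markers. Vim reached at least 2750 CPM in each library. In Py2T-LT controls the mesenchymal factor Snai1 stood at 0.924 and 0.937 CPM and the epithelial keratin Krt18 at 403 and 375 CPM. Markers of other cells that make guidance genes varied: 6 endothelial genes summed to at most 1.62 CPM in any library, with Emcn and Vwf at or below 0.129 CPM, while 5 Schwann and glial genes summed to 6.96 to 7.15 CPM with the combination, 15.5 to 16.7 CPM with the MEK inhibitor, 33.7 to 36.5 CPM in Py2T-LT controls and at most 2.47 CPM in MTΔECad libraries. In Py2T-LT cells most of that sum was S100b, and the Schwann cell factor Sox10 was at or below 0.696 CPM. Of 5 neuronal genes with a row, Map2 gave most of the sum (96.2 to 118 CPM with the combination, 163 to 167 CPM with the MEK inhibitor, 161 to 199 CPM in Py2T-LT controls, and 39.3 to 44.9 CPM over the MTΔECad libraries), and the neuronal factor Rbfox3 was at or below 0.814 CPM. Efna5 (12.3 and 32.7 CPM), Sema4d (4.43 and 6.93 CPM), Sema5a (138 and 206 CPM) and Plxna1 (175 and 249 CPM) were among the genes that lay apart between the 2 Py2T-LT controls. In these bulk samples fewer cells of a type and less RNA per cell cannot be told apart.

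The count filter kept 51 of the 67 genes. The other 16 (Epha3, Epha5, Epha8, Epha10, Ephb1, Robo2, Robo3, Slit1, Slit3, Unc5a, Unc5cl, Efnb3, Ntn5, Sema3g, Sema4g and Sema5b) reached at most 0.739 CPM in any library. Each of the 9 plexins and both neuropilins passed, whereas only Slit2 of the Slits and only Robo1 of the Robo receptors did. A gene counts as called below where edgeR's quasi-likelihood test gave a Benjamini-Hochberg adjusted p under 0.05 over the 13149 genes tested. Of the 51 genes, 49 were called in at least 1 of the 5 comparisons, and Sema6c and Unc50 in none.

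Set side by side per length, as CPM per kilobase of merged exons, the highest level in each of the 5 groups belonged to Ephb6, an Eph receptor without kinase activity. It averaged 122 and 178 CPM per kb in treated and control MTΔECad cells, and 428, 166 and 151 CPM per kb in Py2T-LT cells with the combination, with the MEK inhibitor alone and in controls. With the longest transcript as the length, Nrp1 stood above Ephb6 in rosiglitazone-treated MTΔECad cells (153 against 123 CPM per kb). By merged exons, Unc5b at 157 CPM per kb and Sema3c at 95 CPM per kb came next in combination-treated cells, where in Py2T-LT controls they averaged 11 and 25.2 CPM per kb. By longest transcript, Nrp1 at 218 CPM per kb stood between Ephb6 and Unc5b there. Between 35 and 37 of the 67 genes reached 1 CPM per kb in each group.

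With the combination, Py2T-LT cells had more Unc5b, Sema3c, Slit2, Ephb6, Efnb1 and Efna1 than controls, and far less Ntn1, Sema7a, Sema3d and Sema5a. Of the 51 genes, 17 rose and 16 fell against Py2T-LT controls, 64.7% called, where 38.5% of all genes tested were called (19.1% rose and 19.4% fell). Of the 51, 14 were called with a log2 fold change of at least 1 in size, as were 1717 of the 13149 genes tested (13.1%). The median absolute log2 fold change was 0.56 over these genes and 0.26 over all genes tested. Against the MEK inhibitor alone, which leaves BMP2 as the difference, 15 rose and 11 fell. That is 51% called, where 37.3% of all genes were (17.9% rose and 19.4% fell). Here 12 of the 51 were called with a log2 fold change of at least 1 in size, as were 1559 of the 13149 (11.9%). The MEK inhibitor alone moved fewer: 6 rose and 17 fell against controls, 45.1% called, where 16.5% of all genes were (8.98% rose and 7.52% fell). Of the 51, 2 were called with a log2 fold change of at least 1 in size, as were 507 of the 13149 (3.86%). The count of called genes was lower when MEK inhibitor replicate 2 was left out. Both comparisons with Py2T-LT controls share those controls, the line comparison below shares them too, and the comparison of the combination with the MEK inhibitor shares libraries with each.

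Rosiglitazone in MTΔECad cells changed 10 of the 51 genes, 6 up and 4 down, which is 19.6% where 13.2% of all genes were called (7.95% rose and 5.26% fell). Of the 51, 4 were called with a log2 fold change of at least 1 in size, as were 409 of the 13149 genes tested (3.11%). The count of called genes was lower when MTΔECad control replicate 1 was left out. Between the untreated lines, 13 genes were higher and 28 lower in MTΔECad than in Py2T-LT cells. That is 80.4% called, where 61.0% of all genes were (29.3% higher and 31.7% lower). Of the 51, 25 were called with a log2 fold change of at least 1 in size, as were 3219 of the 13149 (24.5%). This comparison shares the MTΔECad controls with that of rosiglitazone. The median log2 fold change between the lines was -0.52 over these genes and -0.03 over all genes.

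**Figure D1:**
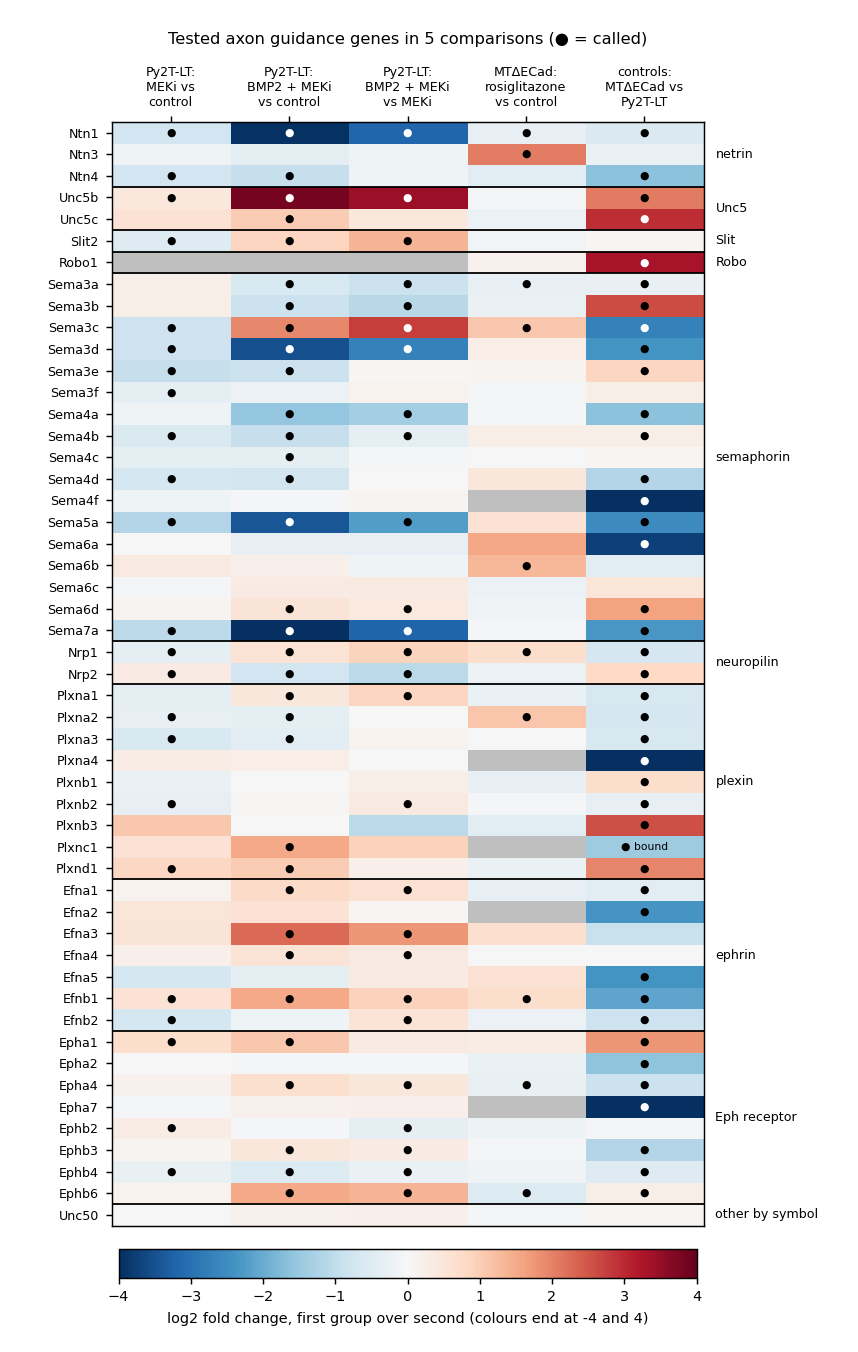
Log2 fold change (colour, red higher and blue lower in the first-named group) of the 51 tested genes, by family, in 5 comparisons (columns). Dots mark called genes, grey cells have both groups at or under 3 counts per library, and "bound" marks a fold against 0 counts; Ntn1, Sema7a, Sema3d and Sema5a are darkest blue and Unc5b darkest red in the combination column.

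Ntn1, which codes for netrin-1, was the netrin that the combination moved most. It stood at 22 and 17.4 CPM with the combination, 185 and 170.4 CPM with the MEK inhibitor alone and 301 and 306 CPM in Py2T-LT controls. The 3 groups did not overlap: the log2 fold change (± SE) was -3.95 ± 0.11 for the combination against controls (edgeR adjusted p = 3.1e-16), a 15.4-fold lower level, -3.18 ± 0.11 against the MEK inhibitor alone and -0.77 ± 0.09 for the MEK inhibitor against controls. In MTΔECad cells Ntn1 measured 178 and 151 CPM with rosiglitazone and 214 and 196 CPM in controls (-0.32 ± 0.09), a fall whose adjusted p was 0.28 without rosiglitazone replicate 2 and 0.23 without control replicate 1.

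Ntn4 is a netrin of basement membranes. Its level was 8.17 and 10.8 CPM with the combination, 10.9 and 10.6 CPM with the MEK inhibitor and 18.3 and 18.1 CPM in Py2T-LT controls, so both treated groups lay under the controls (-0.93 ± 0.15 and -0.76 ± 0.15). MTΔECad libraries held 4.07 and 4.61 CPM with rosiglitazone and 5.29 and 6.45 CPM as controls, and the lines differed by -1.63 ± 0.16. Ntn3 showed another pattern. It stood at 3.08 and 2.68 CPM with rosiglitazone and 0.765 and 0.626 CPM in MTΔECad controls, 4.13-fold higher with the drug (log2 fold change 2.05 ± 0.34, edgeR adjusted p = 0.00017), while the Py2T-LT libraries lay between 0.639 and 0.875 CPM and no Py2T-LT comparison called it. The exons of Ntn3 overlap those of 2 other genes over 2.72% and 1.74% of their length, and whether the authors' counting used strand is not given in the sources used here.

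The netrin receptor Unc5b went the opposite way to Ntn1 with the combination. Unc5b measured 921 and 1048 CPM with the combination, 97.5 and 86.8 CPM with the MEK inhibitor alone and 67.9 and 70.1 CPM in Py2T-LT controls. That was 14.3-fold above controls (3.83 ± 0.10, edgeR adjusted p = 3.6e-17) and 10.7-fold above the MEK inhibitor alone (3.42 ± 0.09). The MEK inhibitor alone stood 0.42 ± 0.09 above controls, with an adjusted p of 0.052 without MEK inhibitor replicate 1. MTΔECad cells held 286 and 259 CPM with rosiglitazone and 306 and 275 CPM as controls, and untreated MTΔECad cells exceeded untreated Py2T-LT cells by 2.07 ± 0.09.

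Unc5c, another netrin receptor, moved less. It stood at 2.68 and 2.33 CPM with the combination, 2.52 and 1.26 CPM with the MEK inhibitor and 1.6 and 0.875 CPM in Py2T-LT controls, and the rise with the combination (1.00 ± 0.33, edgeR adjusted p = 0.021) missed the threshold without combination replicate 1 (adjusted p = 0.11) or without control replicate 2 (log2 fold change 0.63, adjusted p = 0.21). At 8.2 and 8.53 CPM with rosiglitazone and 9.39 and 10.1 CPM in MTΔECad controls, it lay above each Py2T-LT library, and the line difference was 2.97 ± 0.27. Dcc, the receptor through which netrin-1 attracts, reached at most 0.274 CPM in any library and was not tested, while the related Neo1 averaged 147 and 141 CPM in treated and control MTΔECad cells and 459.7, 349 and 369 CPM in the Py2T-LT groups in the order combination, MEK inhibitor and control.

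Slit2 moved in opposite directions with the treatments of Py2T-LT cells. Its level was 239 and 233 CPM with the combination, 90.3 and 92.9 CPM with the MEK inhibitor alone and 121 and 141 CPM in controls. It fell with the MEK inhibitor (-0.51 ± 0.08), and with the combination it rose against controls (0.85 ± 0.08) and against the MEK inhibitor (1.37 ± 0.08). MTΔECad libraries held 125 and 127 CPM with rosiglitazone and 136 and 138 CPM as controls, inside the span of the Py2T-LT controls, and neither the drug nor the line was called. Its receptor Robo1 was close to absent in Py2T-LT cells: the 2 combination libraries, the 2 MEK inhibitor libraries and the 2 controls lay between 0 and 0.246 CPM. MTΔECad cells held 2.43 and 1.86 CPM with rosiglitazone and 2.44 and 1.38 CPM as controls, and 57 counts in MTΔECad controls against 6 in Py2T-LT controls gave a ratio of 10.1 (95% counting interval 4.36 to 28.6, which like all such intervals here covers counting error only). Robo2 had 20 counts with the combination, 2 with the MEK inhibitor and 5 in controls and was not tested.

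Promoters are given here for some genes with large changes under the combination, of which Unc5b, Sema3c and Ephb6 rose and Sema7a, Sema3d and Sema5a fell. They are a choice and not the full list of the largest changes. Ntn1 had no promoter window in the set used, and Efna3, which rose more than Sema3c and Ephb6 against controls, is not shown. Each runs 5′ to 3′ on the gene's strand, from 250 bases before to 50 bases after the start, as annotated by RefSeq on GRCm38.p6. Capitals mark the letters GGCGCC, and CAGAC or its reverse complement GTCTG, motifs known to be bound by SMAD proteins, which carry BMP and TGF-beta signals. GGCGCC reads the same on both strands, and these motifs do not overlap in the windows shown.
Unc5b, chr10:60831532-60831831, minus strand: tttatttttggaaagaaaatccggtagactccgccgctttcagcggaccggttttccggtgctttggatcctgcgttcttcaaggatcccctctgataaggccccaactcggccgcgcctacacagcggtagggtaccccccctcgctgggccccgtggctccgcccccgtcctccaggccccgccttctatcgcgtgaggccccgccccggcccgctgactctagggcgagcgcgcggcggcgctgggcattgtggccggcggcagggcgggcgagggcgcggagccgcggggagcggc
Sema3c, chr5:17574566-17574865, plus strand: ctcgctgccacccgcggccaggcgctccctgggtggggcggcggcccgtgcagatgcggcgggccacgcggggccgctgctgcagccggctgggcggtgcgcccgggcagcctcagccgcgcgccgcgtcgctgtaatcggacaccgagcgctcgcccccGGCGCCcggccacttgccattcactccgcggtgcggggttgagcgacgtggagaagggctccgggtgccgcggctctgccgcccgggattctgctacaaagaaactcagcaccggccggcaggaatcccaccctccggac
Ephb6, chr6:41605261-41605560, plus strand: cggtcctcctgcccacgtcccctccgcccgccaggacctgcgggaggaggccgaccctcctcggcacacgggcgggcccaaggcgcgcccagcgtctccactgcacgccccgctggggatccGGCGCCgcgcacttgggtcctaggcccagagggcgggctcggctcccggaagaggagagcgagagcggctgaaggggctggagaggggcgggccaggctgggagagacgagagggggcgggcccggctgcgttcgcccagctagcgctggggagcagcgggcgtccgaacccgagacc
Sema7a, chr9:57939862-57940161, plus strand: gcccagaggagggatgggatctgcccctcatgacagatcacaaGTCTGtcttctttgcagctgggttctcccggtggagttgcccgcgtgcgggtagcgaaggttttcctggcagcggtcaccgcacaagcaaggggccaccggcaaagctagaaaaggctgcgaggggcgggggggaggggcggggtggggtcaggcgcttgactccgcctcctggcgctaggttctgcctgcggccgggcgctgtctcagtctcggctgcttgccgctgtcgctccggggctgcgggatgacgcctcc
Sema3d, chr5:12382916-12383215, plus strand: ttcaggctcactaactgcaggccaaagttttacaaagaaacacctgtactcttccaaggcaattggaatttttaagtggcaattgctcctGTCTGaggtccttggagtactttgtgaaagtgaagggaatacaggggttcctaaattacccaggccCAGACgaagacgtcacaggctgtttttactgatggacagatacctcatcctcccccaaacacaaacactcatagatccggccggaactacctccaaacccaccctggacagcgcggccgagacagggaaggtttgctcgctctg
Sema5a, chr15:32244563-32244862, plus strand: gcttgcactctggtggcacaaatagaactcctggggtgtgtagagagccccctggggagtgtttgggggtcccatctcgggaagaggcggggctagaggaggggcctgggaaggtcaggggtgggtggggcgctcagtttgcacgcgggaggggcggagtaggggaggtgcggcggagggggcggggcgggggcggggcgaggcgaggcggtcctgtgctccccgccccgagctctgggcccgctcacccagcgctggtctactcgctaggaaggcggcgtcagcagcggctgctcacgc
GGCGCC stood once in the Sema3c window and once in the Ephb6 window, CAGAC or GTCTG once in Sema7a and in both forms in Sema3d, and neither in Unc5b or Sema5a. Of all 32851 RefSeq windows of 300 bases, 11.9% held GGCGCC and 49.6% held CAGAC or GTCTG, and of the 75 windows of 59 guidance genes 21.3% and 58.7% did. Of the windows shown, the 3 of genes that rose had 36, 42 and 34 CpG and those of genes that fell 23, 8 and 23. The median was 20 over the guidance genes and 7 over all windows. That split held for the windows shown only. Among other guidance genes called with the combination against controls, windows had 6 (Sema6d) to 34 CpG (Efna3) where the gene rose. Where the gene fell they had 2 (Sema4d) to 37 CpG (Nrp2). A match describes letters in this window and not a binding site.

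Of the 17 semaphorins tested, 2 rose and 10 fell with the combination against controls, where 19.1% of all genes rose and 19.4% fell. With the MEK inhibitor alone 0 rose and 8 fell, where 8.98% and 7.52% of all genes did. Sema7a, a semaphorin anchored by lipid that binds plexin C1 and integrin beta 1, fell furthest. It stood at 4.42 and 5.17 CPM with the combination, 48.4 and 40.6 CPM with the MEK inhibitor and 94.7 and 87.3 CPM in Py2T-LT controls, an 18.9-fold drop against controls (-4.24 ± 0.14, edgeR adjusted p = 2.2e-15). The MEK inhibitor alone stood -1.03 ± 0.11 from controls on the log2 scale, and the combination -3.21 ± 0.14 from the MEK inhibitor. MTΔECad cells lay between, at 19.4 and 15.2 CPM with rosiglitazone and 17.7 and 18.2 CPM in controls, which is -2.34 ± 0.12 from Py2T-LT controls.

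Sema5a and Sema3d went the same way in steps. Sema5a, a membrane semaphorin with thrombospondin repeats, stood at 17.4 and 15.1 CPM with the combination, 76 and 76.3 CPM with the MEK inhibitor and 138 and 206 CPM in Py2T-LT controls (-3.41 ± 0.18 for the combination, -1.18 ± 0.15 for the MEK inhibitor). The 2 Py2T-LT controls lay apart, and the call for the MEK inhibitor was lost when only the compared groups were fitted (adjusted p = 0.067). In MTΔECad cells Sema5a measured 45.8 and 42.3 CPM with rosiglitazone and 28.8 and 30.5 CPM in controls. That log2 difference of 0.57 was not called. It was called by DESeq2 (adjusted p = 0.003), and by edgeR with only the compared groups (adjusted p = 0.00026) or no count filter (8.3e-07). The lines differed by -2.54 ± 0.17. Sema3d, secreted, stood at 4.82 and 2.91 CPM with the combination, 22 and 27.7 CPM with the MEK inhibitor and 39.9 and 48.5 CPM in Py2T-LT controls, with no overlap among the 3 groups (-3.53 ± 0.19 and -0.82 ± 0.15 against controls). MTΔECad cells held 9.05 and 11.3 CPM with rosiglitazone and 7.93 and 8.89 CPM as controls, -2.39 ± 0.17 from Py2T-LT controls.

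Sema3c, a secreted semaphorin that acts through both neuropilins with plexin D1, went against this pattern. It stood at 720.2 and 636 CPM with the combination, 98.7 and 102 CPM with the MEK inhibitor and 180.5 and 179 CPM in controls. The MEK inhibitor alone lowered it (-0.84 ± 0.08), and with BMP2 added it stood 6.75-fold above the MEK inhibitor (2.75 ± 0.09, edgeR adjusted p = 1.9e-15) and 3.77-fold above controls (1.91 ± 0.08). In MTΔECad cells it also rose with the drug given, to 53.8 and 62.6 CPM with rosiglitazone against 28.5 and 26.4 CPM in controls (1.08 ± 0.10, edgeR adjusted p = 2.8e-08). Those controls held 6.55-fold less than Py2T-LT controls (-2.71 ± 0.09).

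On chromosome 5 Sema3d, Sema3a, Sema3e and Sema3c lie in that order with gaps of 535.9, 421.8 and 3318.1 kb. These gaps hold 0, 3 and 15 other protein-coding genes. With the combination Sema3c rose while the other 3 semaphorins fell. Sema3a, the classical repellent that binds neuropilin-1, measured 140.0 and 119 CPM with the combination, 214 and 256 CPM with the MEK inhibitor and 203 and 197 CPM in Py2T-LT controls, a fall of modest size with the combination (-0.62 ± 0.09). Sema3e, which binds plexin D1 without a neuropilin, stood at 24.8 and 20.8 CPM with the combination, 22.3 and 20.9 CPM with the MEK inhibitor and 42.3 and 39.4 CPM in controls. Its treated libraries overlapped each other and lay under the controls (-0.85 ± 0.10 and -0.92 ± 0.10), and untreated MTΔECad cells at 74.9 and 72.3 CPM lay above them (0.85 ± 0.09).

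Sema3b was the semaphorin with the largest excess in untreated MTΔECad over untreated Py2T-LT cells. It stood at 15.8 and 15.9 CPM with rosiglitazone and 20.3 and 17.6 CPM in MTΔECad controls, against 3.02 and 3.25 CPM in Py2T-LT controls (2.59 ± 0.18 between the controls). Py2T-LT cells held 1.34 and 2.03 CPM with the combination and 3.23 and 4.11 CPM with the MEK inhibitor, a log2 difference of -1.11 ± 0.24 between these groups. Sema3f, 72.3 kb from Sema3b with 3 protein-coding genes between, was called only with the MEK inhibitor (-0.36 ± 0.10, edgeR adjusted p = 0.018). That call was lost without MEK inhibitor replicate 2 (log2 fold change -0.27) or control replicate 2 (-0.27).

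Semaphorins of classes 4 and 6 sit in the membrane. Sema4a measured 0.656 and 0.206 CPM with rosiglitazone and 0.348 and 0.563 CPM in MTΔECad controls, and 0.335 and 0.639 CPM with the combination, 1.03 and 1.53 CPM with the MEK inhibitor and 1.48 and 1.44 CPM in Py2T-LT controls. Its falls with the combination (-1.54 ± 0.47 against controls, -1.37 ± 0.47 against the MEK inhibitor) missed the threshold in DESeq2 (adjusted p = 0.075 and 0.13) and without combination replicate 1 (0.12 and 0.19), the second also without MEK inhibitor replicate 2 (0.23), and its line difference of -1.64 ± 0.48 did so without MTΔECad control replicate 1 (0.059). Sema4d, the ligand of plexin B1, stood at 3.95 and 2.96 CPM with the combination, 3.42 and 3.5 CPM with the MEK inhibitor and 4.43 and 6.93 CPM in Py2T-LT controls. Those 2 controls lay far apart, and without control replicate 2 the difference was -0.37 for the combination (adjusted p = 0.33) and -0.36 for the MEK inhibitor (0.53), in place of -0.72 ± 0.23 and -0.71 ± 0.23. The first call was also lost without combination replicate 2 (0.18) and in DESeq2 (0.083), the second without either MEK inhibitor library (0.15) and in DESeq2 (0.16). MTΔECad libraries held 3.67 and 3.16 CPM with rosiglitazone and 2.3 and 2.69 CPM as controls (-1.18 ± 0.25 between the lines).

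Sema4f was present in Py2T-LT cells and nearly missing in MTΔECad cells. Its level was 4.15 and 3.2 CPM with the combination, 3.1 and 3.67 CPM with the MEK inhibitor and 3.26 and 4.37 CPM in Py2T-LT controls, while both rosiglitazone libraries had 0 counts and MTΔECad controls 0.0696 and 0.0626 CPM. With 2 counts in MTΔECad controls and 123 in Py2T-LT controls, the ratio was 57.9 in favour of Py2T-LT (95% counting interval 15.7 to 483). Sema6a stood at 0.131 and 0.481 CPM with rosiglitazone, 0 and 0.188 CPM in MTΔECad controls, 0.736 and 1.45 CPM with the combination, 1.68 and 1.15 CPM with the MEK inhibitor and 1.23 and 1.56 CPM in Py2T-LT controls, a ratio of 14.1 between Py2T-LT and MTΔECad controls (4.53 to 71). All 3 counts of MTΔECad controls came from replicate 2.

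Sema6b and Sema6d differed from those. Sema6b rose with rosiglitazone, at 2.95 and 2.68 CPM against 1.11 and 1.13 CPM in MTΔECad controls (1.32 ± 0.33, edgeR adjusted p = 0.0091), while Py2T-LT libraries lay between 1.37 and 2.65 CPM. Leaving out either MTΔECad control or rosiglitazone replicate 1 put that adjusted p at 0.062 to 0.066. Sema6d stood at 30.6 and 31.1 CPM with rosiglitazone and 34.7 and 33.5 CPM in MTΔECad controls, and at 16.9 and 14.9 CPM with the combination, 11.2 and 12.8 CPM with the MEK inhibitor and 10.8 and 11.5 CPM in Py2T-LT controls. Each MTΔECad library exceeded each Py2T-LT library (1.61 ± 0.12), and the combination raised it within Py2T-LT cells (0.51 ± 0.12).

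**Figure D2:**
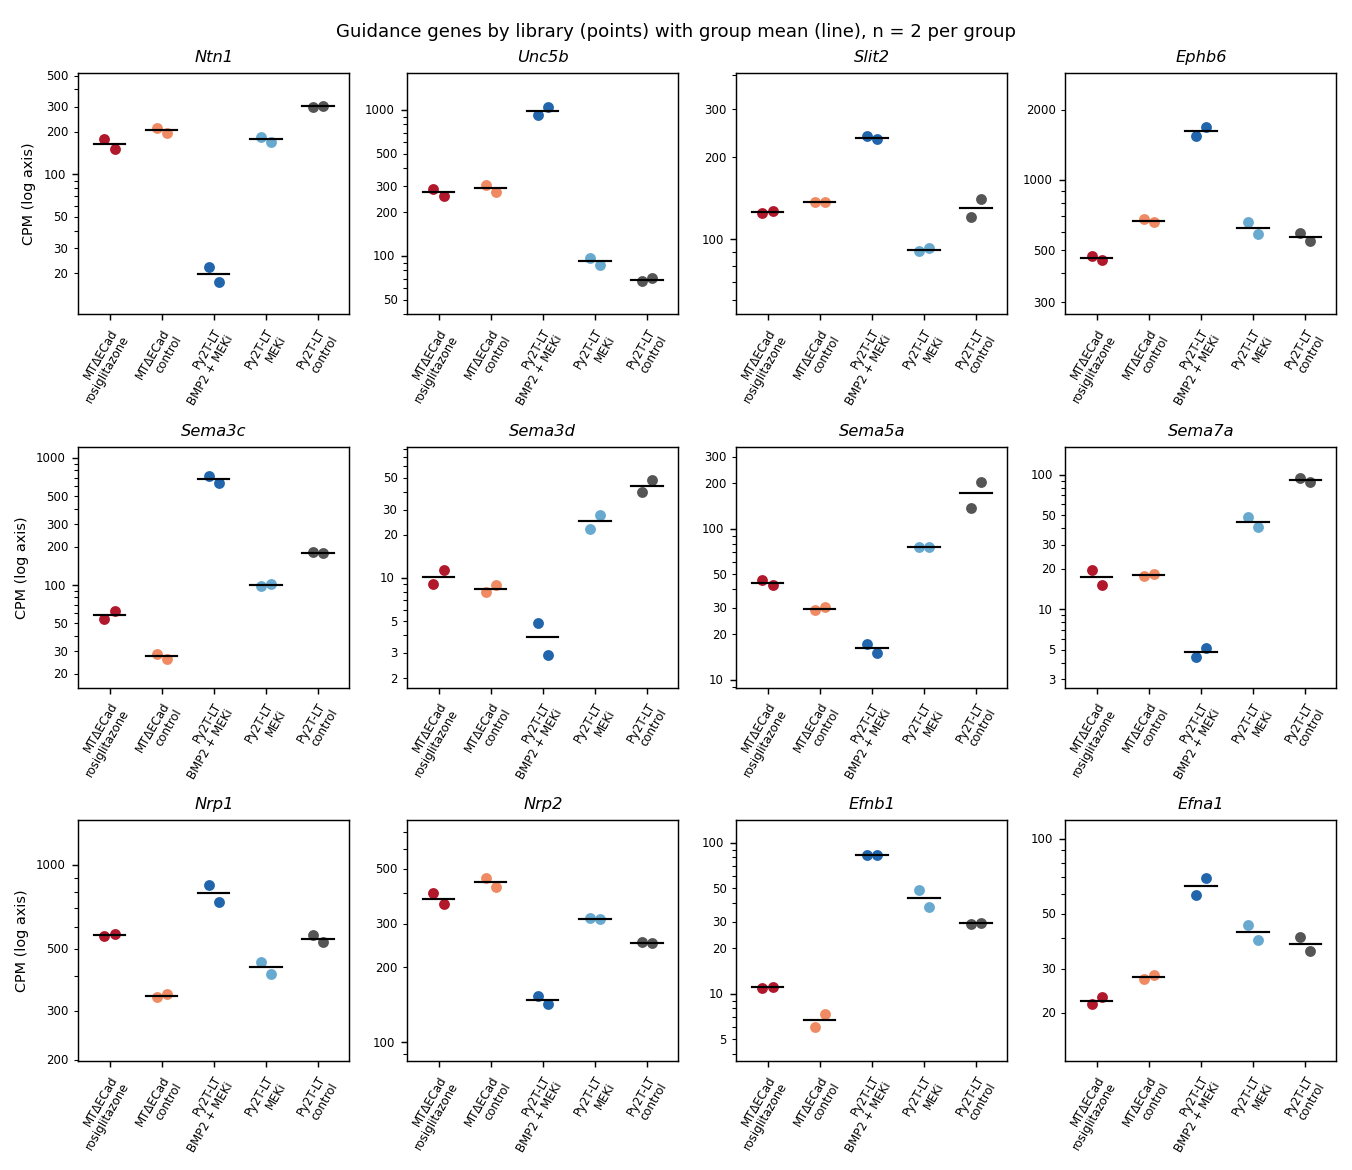
CPM (log axis) of 12 guidance genes in each library (points, 2 per group) with the group mean (line), in MTΔECad cells with rosiglitazone and as controls, then Py2T-LT cells with the combination, with the MEK inhibitor and as controls. Unc5b, Ephb6 and Sema3c are highest with the combination and Ntn1, Sema3d, Sema5a and Sema7a lowest.

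The neuropilins, receptors that class 3 semaphorins share with VEGF, moved in opposite directions. Nrp1 measured 850.4 and 736 CPM with the combination, 450.2 and 407 CPM with the MEK inhibitor and 561 and 528 CPM in Py2T-LT controls, and Nrp2 153 and 142 CPM, 315 and 314 CPM and 253 and 251 CPM in the same groups. Adding BMP2 to the MEK inhibitor gave 0.89 ± 0.08 for Nrp1 and -1.09 ± 0.08 for Nrp2, while the MEK inhibitor alone gave -0.34 ± 0.08 for Nrp1 and 0.32 ± 0.08 for Nrp2, the fall of Nrp1 having an adjusted p of 0.081 without MEK inhibitor replicate 2. In MTΔECad cells Nrp1 rose to 555 and 563 CPM with rosiglitazone, against 336 and 344 CPM in controls (0.72 ± 0.08, edgeR adjusted p = 9.7e-07). Nrp2 stood at 398 and 359.6 CPM with rosiglitazone and 461 and 423 CPM in MTΔECad controls, where the drug was not called and the controls exceeded Py2T-LT controls by 0.81 ± 0.08. The endothelial markers given above stood at or near 0 in these libraries.

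Each of the 9 plexins differed between the untreated lines, 3 higher and 6 lower in MTΔECad cells, where 61.0% of all genes were called (29.3% higher and 31.7% lower). The difference of Plxnb2 (-0.34 ± 0.09) missed the threshold without MTΔECad control replicate 2 (adjusted p = 0.08), and that of Plxna1 in the alternatives given below. Plxna4, a receptor for class 3 and class 6 semaphorins, differed most. It stood at 139.6 and 128 CPM with the combination, 138 and 132 CPM with the MEK inhibitor and 95.7 and 125 CPM in Py2T-LT controls, and 3 of the 4 MTΔECad libraries had 0 counts and the other 1 count. Set against that 1 count, the 3552 counts of Py2T-LT controls gave a ratio of 3.34e+03 (95% counting interval 600 to 1.32e+05). Within Py2T-LT cells Plxna4 was not called (0.28 ± 0.11 with the combination and 0.29 ± 0.11 with the MEK inhibitor against controls), but without control replicate 2 it was 0.48 (edgeR adjusted p = 0.00087) and 0.49 (0.0022) and called in both. Plxnc1, the receptor of Sema7a, had 0 counts in each MTΔECad library and 1.0 and 1.98 CPM with the combination, 0.711 and 0.876 CPM with the MEK inhibitor and 0.677 and 0.375 CPM in Py2T-LT controls, at least 2.65-fold lower in MTΔECad controls against a floor of 3 counts per library. Its rise with the combination (1.51 ± 0.48) was lost in DESeq2 (adjusted p = 0.15) and was 0.92 without combination replicate 2 (0.29) and 1.15 without control replicate 2 (0.15).

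Plxnd1, Plxnb3 and Plxnb1 were the plexins with more RNA in MTΔECad cells. Plxnd1, the receptor of Sema3e, measured 80.0 and 78.8 CPM with rosiglitazone and 103 and 90.2 CPM in MTΔECad controls, and in Py2T-LT cells 48.7 and 53 CPM with the combination, 48.8 and 39.6 CPM with the MEK inhibitor and 21.9 and 28.2 CPM in controls. Both treatments of Py2T-LT cells raised it (1.02 ± 0.12 and 0.82 ± 0.12), to values that overlap each other and lie below MTΔECad cells (1.94 ± 0.12 between the controls). Plxnb3 stood at 2.16 and 2.27 CPM with rosiglitazone, 3.27 and 2.75 CPM in MTΔECad controls, 0.402 and 0.581 CPM with the combination, 1.03 and 1.09 CPM with the MEK inhibitor and 0.616 and 0.375 CPM in Py2T-LT controls (2.58 ± 0.36 between the controls), and Plxnb1, the receptor of Sema4d, was 0.70 ± 0.11 higher in MTΔECad controls.

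Plxna2 was the plexin that rosiglitazone raised. It stood at 78.8 and 69.9 CPM with rosiglitazone and 37 and 31.9 CPM in MTΔECad controls (1.11 ± 0.10, edgeR adjusted p = 9.6e-08), and at 42.4 and 42.1 CPM with the combination, 41.3 and 44.2 CPM with the MEK inhibitor and 49.1 and 59.3 CPM in Py2T-LT controls. Its small falls in Py2T-LT cells (-0.36 ± 0.10 and -0.34 ± 0.10) were -0.22 (adjusted p = 0.17) and -0.20 (0.37) without control replicate 2, and the second call was also lost without either MEK inhibitor library (0.17 and 0.062). Plxna1 also depends on that pair of controls, which held 175 and 249 CPM: its rise with the combination, at 272 and 312 CPM, was 0.46 ± 0.16 (edgeR adjusted p = 0.048), 0.23 without control replicate 1, and 0.74 without control replicate 2. That call was lost without control replicate 1 (0.11), without either combination library (0.084 and 0.22), in DESeq2 (0.051) and when only the compared groups were fitted (0.2). Against the MEK inhibitor alone, at 163 and 162 CPM, the rise was 0.85 ± 0.16, and the line difference of -0.65 ± 0.16 was -0.37 without control replicate 2 of Py2T-LT and had an adjusted p of 0.12 when only the controls were fitted and 0.05 without MTΔECad control replicate 2. Exons of Plxna1 overlap an opposite-strand gene over 10.7% of their length.

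Of the 7 ephrins tested, 4 rose with the combination and 0 fell against controls, where 19.1% of all genes rose and 19.4% fell. Against the MEK inhibitor 5 rose and 0 fell, where 17.9% and 19.4% of all genes did. Efnb1 measured 82.3 and 82.8 CPM with the combination, 48.8 and 37.7 CPM with the MEK inhibitor and 28.9 and 29.5 CPM in Py2T-LT controls, a rise of 1.5 ± 0.11 with the combination (edgeR adjusted p = 5.8e-10) and 0.56 ± 0.11 with the MEK inhibitor, the smaller one 0.37 without MEK inhibitor replicate 1 (adjusted p = 0.056). MTΔECad cells held 10.9 and 11.1 CPM with rosiglitazone and 6.05 and 7.32 CPM as controls, under each Py2T-LT library (-2.12 ± 0.14), and rosiglitazone raised it by 0.71 ± 0.15, with an adjusted p of 0.057 without control replicate 1. Efnb2, the partner of Ephb4, fell with the MEK inhibitor (-0.70 ± 0.08, 188 and 195 CPM against 294 and 329 CPM in controls) and stood higher again with the combination at 288 and 269.9 CPM (0.54 ± 0.08 against the MEK inhibitor).

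Efna1, Efna3 and Efna4 lie side by side on chromosome 3, with gaps of 32.9 and 10.5 kb and no other protein-coding gene between them, and each rose with the combination. Efna1 stood at 59.5 and 69.7 CPM with the combination, 45 and 39.1 CPM with the MEK inhibitor and 40.3 and 35.4 CPM in Py2T-LT controls (0.77 ± 0.10 against controls). Efna3 stood at 1.54 and 1.51 CPM, 0.388 and 0.493 CPM and 0.246 and 0.375 CPM in those groups (2.27 ± 0.48) and between 0.0626 and 0.328 CPM in MTΔECad cells, and its rise against the MEK inhibitor (1.76 ± 0.44) was not called by DESeq2 (adjusted p = 0.071). Efna4 stood at 18.2 and 21.1 CPM, 15.2 and 15.4 CPM and 13 and 13.7 CPM in the same order and rose by 0.56 ± 0.13 against controls. Its rise against the MEK inhibitor (0.36 ± 0.13) was lost without combination replicate 2 (adjusted p = 0.24), without either MEK inhibitor library (0.11 and 0.096) and in DESeq2 (0.09). Exons of Efna3 and Efna4 overlap opposite-strand genes over 14.1% and 10.5% of their length.

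Efna2 and Efna5 differed between the lines. Efna2 stood at 0.262 and 0 CPM with rosiglitazone and 0.139 and 0.125 CPM in MTΔECad controls, and at 1.07 and 1.05 CPM with the combination, 1.1 and 0.931 CPM with the MEK inhibitor and 0.739 and 0.687 CPM in Py2T-LT controls. The 4 counts of MTΔECad controls against 23 of Py2T-LT controls gave a ratio of 5.41 in favour of Py2T-LT (95% counting interval 1.85 to 21.5), with an edgeR adjusted p of 0.054 without MTΔECad control replicate 2. Efna5 measured 6.62 and 6.33 CPM with rosiglitazone, 3.55 and 4.88 CPM in MTΔECad controls, 17.6 and 17.3 CPM with the combination, 13.4 and 14.2 CPM with the MEK inhibitor and 12.3 and 32.7 CPM in Py2T-LT controls, of which the second stood apart. Its line difference was -2.40 ± 0.52, -1.54 without that second control, and had an adjusted p of 0.13 when only the controls were fitted and 0.058 without MTΔECad control replicate 1.

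Ephb6, the Eph receptor with the highest level, rose with the combination and fell with rosiglitazone. It stood at 1545 and 1683 CPM with the combination, 660.3 and 588 CPM with the MEK inhibitor and 591 and 548 CPM in Py2T-LT controls, where the combination libraries lay above all others (1.5 ± 0.08 against controls, edgeR adjusted p = 2.1e-12, and 1.37 ± 0.08 against the MEK inhibitor). In MTΔECad cells it measured 471 and 453 CPM with rosiglitazone and 681 and 660.0 CPM in controls (-0.54 ± 0.08, edgeR adjusted p = 3.3e-05). The line difference of 0.24 ± 0.08 was lost without Py2T-LT control replicate 2 (adjusted p = 0.11) or MTΔECad control replicate 1 (0.077). Epha1, whose gene lies 738 kb away, stood at 5.15 and 7.5 CPM with the combination, 4.65 and 5.2 CPM with the MEK inhibitor and 2.9 and 3.19 CPM in Py2T-LT controls (1.07 ± 0.21 for the combination) and at 12.7 and 12.9 CPM with rosiglitazone and 9.6 and 11.1 CPM in MTΔECad controls (1.77 ± 0.20 between the lines). Its rise with the MEK inhibitor (0.70 ± 0.22) was lost on leaving out any 1 of the 4 compared libraries (0.058 to 0.18) and in DESeq2 (0.071), and its exons overlap Zyx over 6.01% of their length.

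Epha7, Epha2 and Ephb3 differed between the lines. Epha7 was a further gene that MTΔECad cells nearly lacked. It stood at 0.131 and 0.138 CPM with rosiglitazone and 0 and 0.125 CPM in MTΔECad controls, against 11.8 and 13.1 CPM with the combination, 10.1 and 11.5 CPM with the MEK inhibitor and 10.6 and 11.6 CPM in Py2T-LT controls. Its ratio of Py2T-LT over MTΔECad controls was 168 (95% counting interval 46.3 to 1.4e+03, from 358 and 2 counts), and no treatment of Py2T-LT cells was called. Epha2, a receptor known from epithelia and breast cancer, stood at 42.4 and 44.3 CPM with rosiglitazone and 50.4 and 54.8 CPM in MTΔECad controls, against 144 and 164 CPM with the combination, 171 and 154 CPM with the MEK inhibitor and 166 and 154 CPM in Py2T-LT controls (-1.60 ± 0.09 between the lines). Ephb3 stood at 17.8 and 17.9 CPM with rosiglitazone and 19.3 and 18.1 CPM in MTΔECad controls, and at 56.2 and 59.6 CPM with the combination, 51 and 41.5 CPM with the MEK inhibitor and 41.8 and 43.3 CPM in Py2T-LT controls, with line difference -1.19 ± 0.11. Ephb4, the partner of ephrin-B2, fell with the combination (-0.56 ± 0.08) and Epha4 rose (0.63 ± 0.07).

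**Figure D3:**
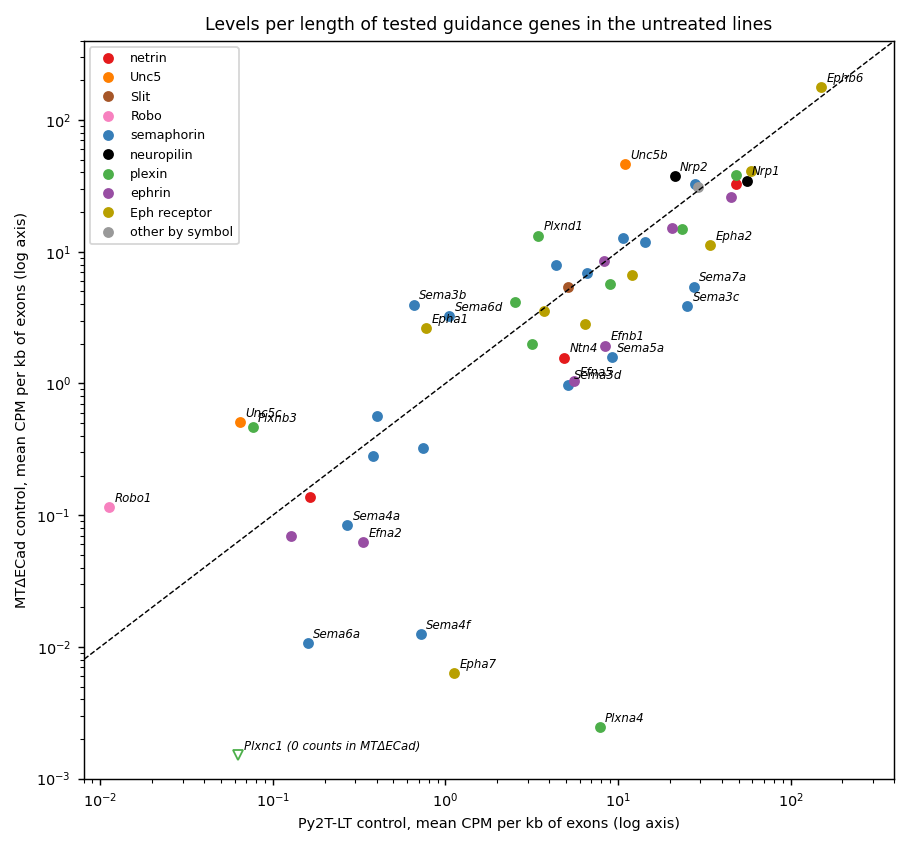
Mean CPM per kb of exons (log axes) of the 51 tested genes in Py2T-LT controls (horizontal) and MTΔECad controls (vertical), coloured by family, with the dashed line where both are equal. Plxna4, Epha7, Sema4f and Sema6a lie far below the line, Plxnc1 (open triangle, 0 counts in MTΔECad) is drawn near the lower edge, and Robo1, Unc5c, Unc5b, Sema3b and Plxnb3 lie above it.

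With rosiglitazone, Sema3c and its receptor subunit Nrp1, together with Plxna2, Ntn3, Sema6b and Efnb1, rose in MTΔECad cells, and Ephb6, Ntn1, Sema3a and Epha4 fell. The falls of Sema3a (-0.32 ± 0.09, 124 and 139 CPM with the drug and 160.2 and 167 CPM in controls) and Epha4 (-0.28 ± 0.08, 45.1 and 42.8 CPM and 52.5 and 54.6 CPM) were small. The call of Sema3a was lost without rosiglitazone replicate 1 (adjusted p = 0.24) or either control (0.08 and 0.17). That of Epha4 was lost on leaving out any 1 of the 4 compared libraries (0.052 to 0.16) and when only those groups were fitted (0.061). The 6 adipocyte markers summed to 3.43e+03 to 3.74e+03 CPM with rosiglitazone and 1.66e+03 to 1.79e+03 CPM in MTΔECad controls. In Py2T-LT cells they summed to 1.03e+03 to 1.21e+03 CPM with the combination, 856 to 874 CPM with the MEK inhibitor and 562 to 576 CPM in controls. In MTΔECad cells the 7 epithelial markers summed to 418 to 462 CPM with rosiglitazone and 283 to 294 CPM in controls, and the 8 mesenchymal markers to 1.02e+04 to 1.06e+04 CPM with rosiglitazone and 1.36e+04 to 1.62e+04 CPM in controls. Fn1 gave most of the drop in the mesenchymal sum with rosiglitazone. Vim, Zeb2 and Snai1 (11.5 and 11.6 against 17.4 and 15.6 CPM in MTΔECad controls) were also lower. Cdh2 (153 and 138 against 150 and 156 CPM), Zeb1 and Twist1 overlapped between drug and control, and Snai2 was slightly higher. In Py2T-LT cells the epithelial markers summed to 312 to 335 CPM with the combination, 589 to 674 CPM with the MEK inhibitor and 642 to 692 CPM in controls. Krt14, a keratin of basal epithelium in that list, went against that sum, at 94.4 and 101 CPM with the combination, 18.4 and 16 CPM with the MEK inhibitor and 10.8 and 9.43 CPM in controls, and stood at 68.4 and 57.4 CPM with rosiglitazone and 10.1 and 8.64 CPM in MTΔECad controls. The neuronal tubulin Tubb3 stood at 10.2 and 14.2 CPM with the combination, 2.45 and 2.68 CPM with the MEK inhibitor and 2.83 and 2.12 CPM in controls, and the glial S100b at 4.82 and 4.77 CPM, 14 and 13.5 CPM and 34.4 and 32.2 CPM in the same order. Most of each adipocyte sum was Lpl, and other markers changed more. Adipoq stood at 101 and 90 CPM with rosiglitazone and 0.0696 and 0 CPM in MTΔECad controls. Plin1 stood at 293 and 217 CPM and 0.417 and 0.313 CPM in that order. In Py2T-LT cells Plin1 stood at 31.9 and 33.7 CPM with the combination and 18.4 and 14.1 CPM with the MEK inhibitor. Py2T-LT controls held 0.185 and 0.375 CPM. Adipoq stood at 20.9 and 21.6 CPM, 26.1 and 22.8 CPM and 0.0616 and 0.5 CPM in the same order. Fabp4 and Cidec were likewise higher with each treatment. Pparg, however, stood at 63.2 and 61.8 CPM with rosiglitazone and 68.7 and 67.3 CPM in MTΔECad controls. In Py2T-LT cells Pparg was higher with the combination (25 and 25 CPM) and the MEK inhibitor (11.9 and 13.9 CPM) than in controls (3.14 and 3.94 CPM). The part of these shifts in the guidance results was not tested.

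**Figure D4:**
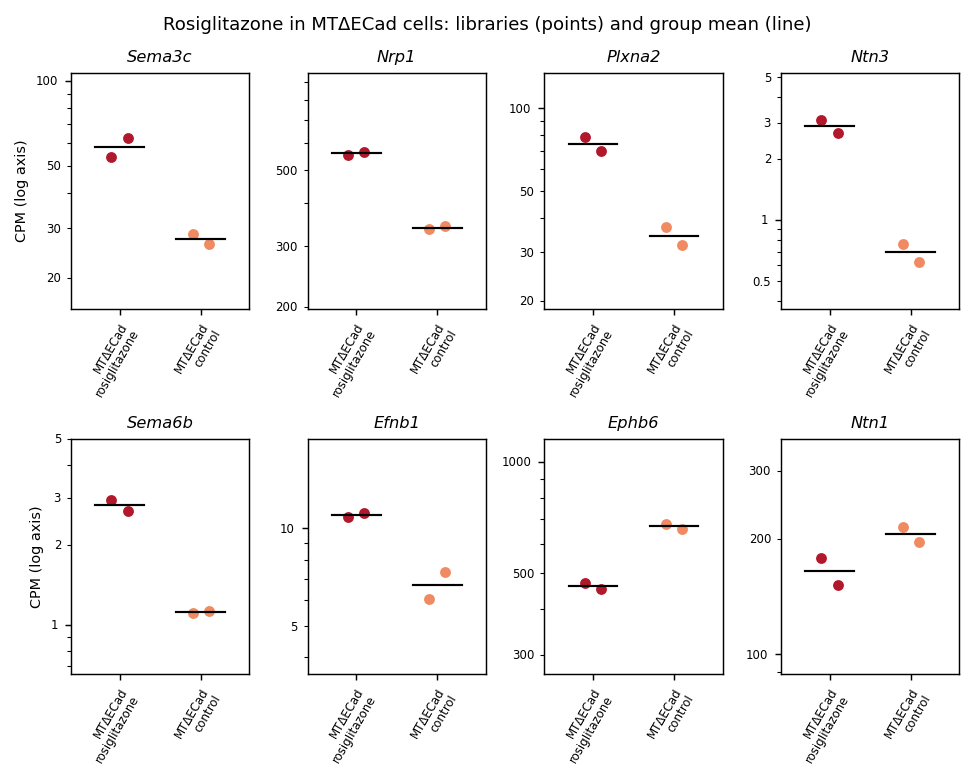
CPM (log axis) of 8 guidance genes in MTΔECad libraries with rosiglitazone and as controls (points) with the group mean (line). The 2 libraries of a group do not overlap those of the other in any panel: Sema3c, Nrp1, Plxna2, Ntn3, Sema6b and Efnb1 are higher with the drug, Ephb6 and Ntn1 lower. All 8 were picked from the genes called for rosiglitazone, so this separation is not a further result.

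A list of 76 other guidance genes, covering further receptors, partners and signal carriers of these families, was counted beside the ligands and receptors, and 66 of them were tested. With the combination 19 rose and 21 fell against controls (60.6% called, 38.5% of all genes), and 23 rose and 19 fell against the MEK inhibitor (63.6% called, 37.3% of all genes). The MEK inhibitor alone gave 9 rises and 8 falls (25.8%, against 16.5% of all genes). Rosiglitazone gave 4 and 5 (13.6%) and the line comparison 24 and 21 (68.2%), shares near the 13.2% and 61.0% of all genes. Draxin, a secreted protein that binds netrin-1 and Dcc, had 299 counts with the combination against 3 in Py2T-LT controls (ratio 100, 95% counting interval 33.9 to 488), at 8.5 and 10.0 CPM with the combination, 0.129 and 0.383 CPM with the MEK inhibitor and 0.0616 and 0.125 CPM in controls. Tiam1 and Srgap3 also rose: Tiam1, an activator of Rac, at 69 and 78.6 CPM with the combination, 16.3 and 15.7 CPM with the MEK inhibitor and 13.5 and 12.9 CPM in controls, and Srgap3, a Slit-Robo GTPase-activating protein, at 127 and 126 CPM, 45.9 and 54.7 CPM and 24 and 30.7 CPM.

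Further rises of at least 1.5 on the log2 scale with the combination against controls were Arhgef28 (2.64 ± 0.16), Rnd1, a GTPase that binds plexins (1.55 ± 0.18), the netrin-G Ntng1 (74 against 7 counts, ratio 10.6, interval 4.9 to 27.3) and the adhesion protein Chl1 (49 against 5 counts, ratio 9.83, interval 3.94 to 31.6). Falls of that size were L1cam (-2.04 ± 0.17), Rgma, a repulsive ligand of neogenin (-1.74 ± 0.18), the actin-binding Ablim1 (-1.58 ± 0.10) and Plxdc2 (3 against 36 counts, 12-fold lower, interval 3.78 to 60.7). Against the MEK inhibitor alone, Flrt3 (-2.09 ± 0.11) and Plxdc1 (-1.87 ± 0.15) fell too. In MTΔECad cells rosiglitazone raised Nrcam (31 against 8 counts, ratio 3.95, interval 1.77 to 9.94), a call lost without rosiglitazone replicate 1 or either control.

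Between the untreated lines, Flrt2, a membrane protein that binds Unc5 receptors, stood at 1.74 and 1.88 CPM in MTΔECad controls against 206 and 242 CPM in Py2T-LT controls (-6.95 ± 0.14, edgeR adjusted p = 6.6e-20). Flrt3 (-2.81 ± 0.14), Met, which binds plexin B receptors (-1.77 ± 0.07), and Rgmb (-1.51 ± 0.10) were also lower in MTΔECad cells. Srgap1 had 0 counts in MTΔECad controls and 71 in Py2T-LT controls, at least 11.1-fold lower. Ngef and Plxdc1 were lower in MTΔECad as well, with Py2T-LT over MTΔECad ratios of 41.3 (interval 18.7 to 113) and 60.5 (29.1 to 151). Rgs3 (206 against 3 counts, ratio 73, interval 24.6 to 357), Ablim3 (229 against 6 counts, ratio 40.6, interval 18.3 to 112) and Srgap3 (1.60 ± 0.12) were higher in MTΔECad cells.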

How the data were processed

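The authors deposited 1 table of raw read counts by gene ID from RNA sequencing of 10 cultures. STAR and mm10 are named per the submitters' processing notes. How reads were counted, with which annotation and whether by strand, is not given in the sources used here. Gene symbols came from RefSeq names of 18057 IDs and GENCODE names of 3, and 43 IDs with 0.763% of all counts matched neither.

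Counts were tested with edgeR 4.0.16 in R 4.3.3 (TMM scaling, filterByExpr, quasi-likelihood test with robust dispersion, 1 mean per group over all 10 libraries, 5 residual degrees of freedom), with Benjamini-Hochberg adjustment over 13149 genes and a threshold of 0.05. The SE is the absolute log2 fold change divided by the root of F. The labels call the 2 samples of each group independent experiments, and p-values measure only the spread between them. CPM are counts per 1e+06 counts of the library total after that total was multiplied by the library's TMM factor. Ratios where a group had few counts carry exact conditional 95% intervals, and a group at 0 counts was set to a floor of 3 counts per library.

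The genes and lists were chosen with earlier results of these data known. Values were given for each gene of the rule with a called log2 fold change of at least 1, and for others by their role; other guidance genes were named where called with a log2 fold change of at least 1.5 and among the largest in a comparison, and Neo1 and Dcc as netrin receptors. Motifs were chosen after the values were seen. Alternatives were DESeq2 1.42.0, RLE scaling, no count filter, only the compared groups, a replicate block and leaving out each library. A planned comparison of protein sequences was not made, and protein sequences were not used here. The fitting steps were tested on simulated counts.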

Additional observations from a re-analysis of the deposited data

How the results depend on the processing

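Of 133 calls of guidance genes over the 5 comparisons, 93 held under each alternative run and 40 were lost in at least 1; of the 57 calls with an absolute log2 fold change of at least 1, 47 held. DESeq2 lost 10 and gained 1, fitting only the compared groups lost 6 and gained 6, RLE scaling changed none, and no count filter lost 0 and gained 15. The guidance genes called for the MEK inhibitor against controls numbered 23, and 15 to 22 when 1 library was left out. For rosiglitazone they numbered 10, 5 to 9 when 1 library was left out, and 16 with no count filter, which tests 67 genes in place of 51. All genes called for rosiglitazone numbered 1737, and 1112 to 1338 when 1 library was left out. The cause of these shifts beyond the smaller number of libraries was not tested. Efna5 reversed: with the combination against controls its log2 fold change was -0.37 and not called, and on leaving out 1 library it lay between -0.91 and 0.50, the positive value (adjusted p = 0.029 by edgeR) arising when control replicate 2 was dropped.

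Replicate numbers did not pair the samples: deviations of same-numbered libraries correlated between -0.11 and 0.10 over 10 pairs of groups. With a replicate block the guidance genes called numbered 23 for the MEK inhibitor, 32 for the combination against controls, 26 against the MEK inhibitor, 11 for rosiglitazone and 41 between the lines, and all genes called 2245, 5148, 5024, 1833 and 8091 in that order. The block lost the call of Plxna1 for the combination against controls (adjusted p = 0.088) and gained 1 other. At this depth genes under about 0.2 CPM rest on 3 counts or fewer per library.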
